A study of Mus musculus with 2 samples.

Results

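This account covers 40 mouse genes of the unfolded protein response, the secretory pathway and the amino acid response. The members were the non-control spots of 2 Agilent arrays whose gene name in the files equalled a listed name. Of the 40 names, 38 were found, on 64 probes, among 27670 named genes or transcripts of the arrays. Of those 38 genes, 37 were tested, among 15267 genes tested in all. Creb3l1, an ER-tethered transcription factor, was not tested because it was not well above background in either cell fraction on either array. Sel1l and Manf are on the arrays under the older names Sel1h and Armet, outside the naming rule, and their values are given apart from the counts.

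The arrays set CD133-positive against CD133-negative cells of the GIF-5 line, made of cultured mouse gastric epithelial cells of genotype Runx3-/-p53-/-, which both fractions share. Per the labels, the fractions were separated by flow cytometry with an antibody against CD133, and both came from culture in medium with serum. Each array carried RNA of the CD133-positive fraction in Cy3 and of the CD133-negative fraction in Cy5, and the labels call the arrays biological replicates 1 and 2. The labels do not say whether these came from separate cultures or sorts, so p-values cover only the spread between 2 arrays, which may be technical. Both arrays have the same dye orientation, and for any gene a dye effect and a difference between the fractions cannot be told apart. Since a line is a mixture of cells, more cells that express a gene and more RNA per cell cannot be told apart either.

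The unfolded protein response is set off when unfolded proteins build up in the endoplasmic reticulum (ER). The sensors IRE1, PERK and ATF6 in the ER membrane then signal to the nucleus: IRE1 splices Xbp1 mRNA, PERK slows translation and raises ATF4, and ATF6 is cut to free a transcription factor. Together these factors induce chaperones, oxidoreductases and degradation proteins of the ER, whereas ATF4, which other stresses such as amino acid shortage also raise, induces genes of amino acid synthesis. Mucus and enzyme secreting cells of the stomach carry a heavy load of folding work, and Xbp1 and Agr2 are known for their roles in such cells.

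RefSeq promoter windows of 300 bases (GRCm38.p6), from 250 bases before to 50 bases after the annotated start, were present for 35 of the 40 genes. Both strands were searched for the ER stress response element (ERSE), in which CCAAT and CCACG lie 9 bases apart and which NF-Y and ATF6 are known to bind. It was found in 9 of the 35 members and in 39 of 32851 windows of the RefSeq table (0.119%). The stretches are shown because these 9 genes, folding factors apart from Syvn1, carry the element that defines the chaperone branch. CCAAT and CCACG are in capitals, and each stretch is written 5′ to 3′ on the strand of the motif.
Calr, chr8:84847065-84847103, plus strand: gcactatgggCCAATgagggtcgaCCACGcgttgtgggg
Canx, chr11:50325790-50325828, minus strand: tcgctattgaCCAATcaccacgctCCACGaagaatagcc
Creld2, chr15:88819510-88819548, minus strand: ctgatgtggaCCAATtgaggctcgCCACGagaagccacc
Dnajc3, chr14:118937817-118937855, plus strand: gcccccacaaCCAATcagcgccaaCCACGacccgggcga
Ero1lb, chr13:12565672-12565710, minus strand: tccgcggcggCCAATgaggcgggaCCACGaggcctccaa
Hsp90b1, chr10:86705523-86705561, plus strand: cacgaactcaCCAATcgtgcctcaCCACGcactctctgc
Hsp90b1, chr10:86705628-86705666, minus strand: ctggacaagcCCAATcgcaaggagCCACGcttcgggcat
Hspa5, chr2:34772015-34772053, plus strand: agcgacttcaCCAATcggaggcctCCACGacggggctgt
Pdia6, chr12:17266481-17266519, plus strand: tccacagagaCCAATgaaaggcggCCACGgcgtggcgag
Syvn1, chr19:6046522-6046560, plus strand: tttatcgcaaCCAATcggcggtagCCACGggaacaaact

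The other element searched was the C/EBP-ATF response element (CARE, TGATGNAAN), which ATF4 is known to bind and which marks the amino acid response branch. It was found in 5 of the 35 members and in 1299 of all windows (3.95%). The 9 letters of the match are in capitals below, again on the strand of the motif.
Asns, chr6:7693214-7693242, minus strand: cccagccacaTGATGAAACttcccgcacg
Atf3, chr1:191183426-191183454, plus strand: gcggacttggTGATGCAAGtgcgagaagg
Chac1, chr2:119351038-119351066, minus strand: ctggcaggagTGATGCAACggcagggaag
Herpud1, chr8:94386306-94386334, minus strand: gggtgcgggcTGATGCAACccgccgtggt
Trib3, chr2:152344029-152344057, plus strand: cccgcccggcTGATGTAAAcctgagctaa
Within these matches, TTGCATCA, the reverse complement of part of the CARE, was found in 3 members (0.895% of all windows) and TTTCATCA in 1 (1.02% of all windows). The core of the unfolded protein response element, TGACGTGG, was in 0 of the 35 windows (0.676% of all windows) and the ATF site TGACGTCA also in 0 (1.79%). The E-box CACGTG was in 3 windows, those of Calr, Dnajb9 and Ssr1 (7.15% of all windows). A match describes letters and is not a site known to be bound in these cells.

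**Figure D1:**
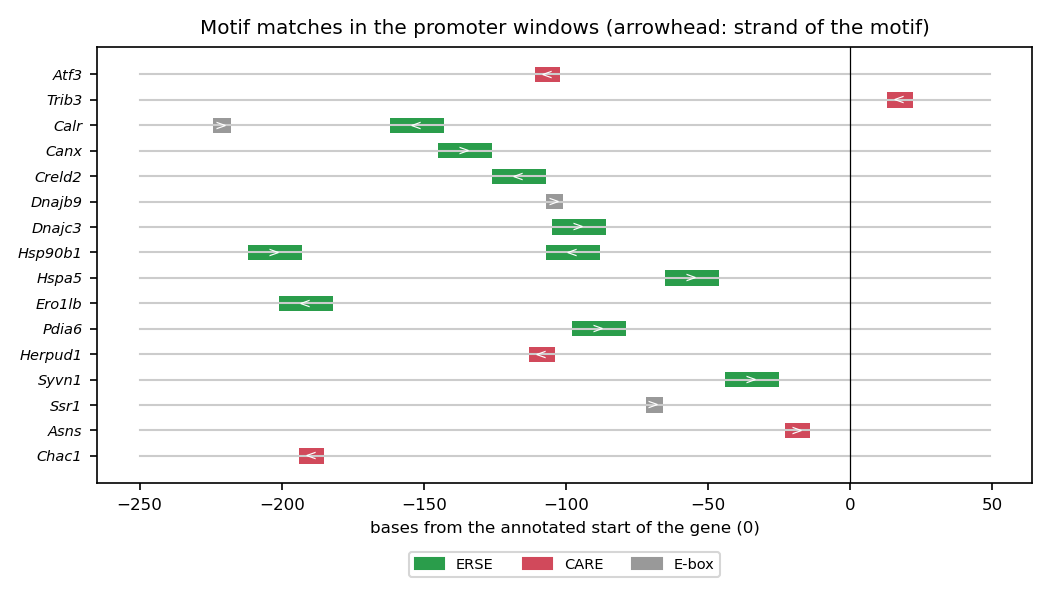
Position of each motif match in the 300-base promoter windows of the 16 members that hold one, in bases from the annotated start of the gene on the horizontal axis. Green bars are ERSE, red bars CARE and grey bars E-box matches, with the arrowhead giving the strand relative to the gene. ERSE matches all lie before the start, whereas the CARE match of Trib3 lies after it.

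In CD133-positive cells, most of these genes gave slightly higher signals than in CD133-negative cells, but none passed the test across all genes. Ratios are log2 of the intensity in CD133-positive over that in CD133-negative cells, after background correction and loess normalisation. The test was limma with Benjamini-Hochberg adjustment over all 15267 genes and a threshold of 0.05. It called 0 of the 37 members, against 256 of all genes (1.68%). At an unadjusted limma p under 0.05, 9 members were higher (11.9% of all genes) and 1 was lower, and 27.9% of all genes passed it in either direction.

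On both arrays, 30 of the 37 members had a ratio above 0, as had 32.6% of all genes. A ratio below 0 on both arrays was found for 4 members, Chac1, Phgdh, Ssr1 and Syvn1, and for 39.7% of all genes. The signs were opposite for Creb3l2, Eif2ak3 and Ern2. The median ratio of the 37 members was 0.26 (0.25 and 0.22 on the single arrays). All tested genes had a median of −0.03. Members were bright genes, with a median log2 intensity of 11.77 against 9.33 for all tested genes. The preponderance of higher members depends on the loess step, which acts along intensity: 33 of 37 lay above the median of all genes with it, and 21 of 37 when each array was centred on its median instead. Among the higher members, Agr2 passed the filter only through the CD133-positive fraction. Where both fractions had to pass, which left Agr2 out, 32 of 36 members lay above the median of all genes.

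**Figure D2:**
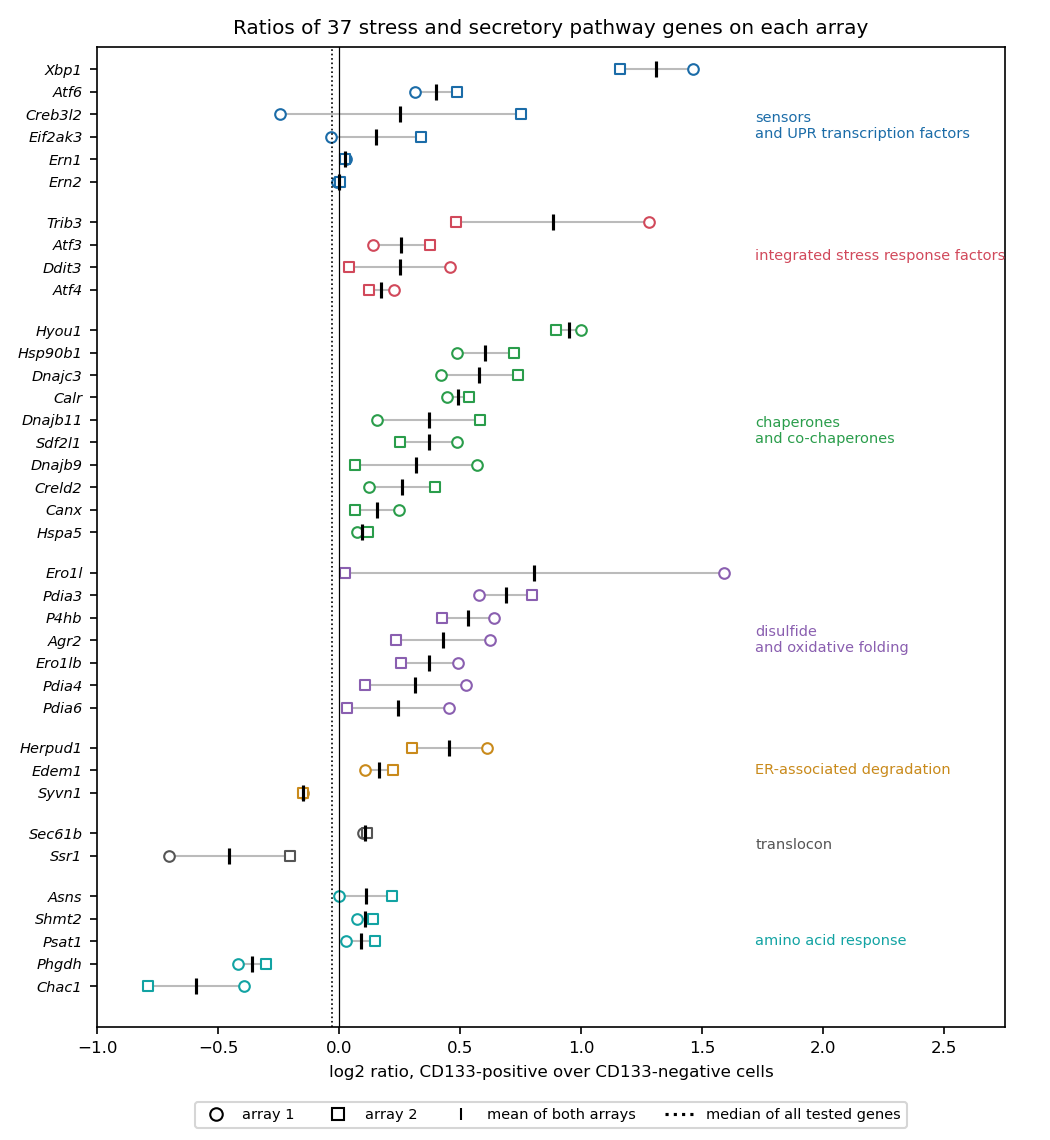
Log2 ratio of CD133-positive over CD133-negative cells for each of the 37 tested members, grouped by role, with array 1 as circles, array 2 as squares and their mean as a tick. The dotted line is the median of all tested genes, −0.03. Chaperones and folding enzymes lie right of 0 on both arrays, while Chac1, Phgdh, Ssr1 and Syvn1 lie left of it.

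Among the sensors and the transcription factors of the response, Xbp1 stood highest. Xbp1, the transcription factor made from mRNA that IRE1 splices, had log2 intensities of 11.75 and 11.61 in CD133-positive cells on arrays 1 and 2, against 10.29 and 10.45 in CD133-negative cells. Both values of the CD133-positive cells lay above both of the CD133-negative cells. Its ratio was 1.31 ± 0.16 (limma standard error, n = 2), a fold of 2.48, with a limma adjusted p of 0.0592, the smallest of any member. It was the only member at least 2-fold higher on both arrays, which held for 2.50% of all genes. The array reports total Xbp1 signal, and splicing was not measured.

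The Xbp1 call depends on the processing. Its limma adjusted p was 0.0475 without background correction, 0.0446 with a smaller offset of 16, 0.0468 with scaling between arrays and 0.0327 with an intensity trend in the variance. The ratio in these settings lay between 1.31 and 1.35. With median centring over the tested probes it was 1.03, with a limma adjusted p of 0.0392, and over all probes it was 0.37, with a limma adjusted p of 0.131. Centring over all probes put the median of all genes at −0.75. Relative to that median, Xbp1 was at 1.11 with either centring. Xbp1 also missed the threshold with the deposited processed signals (limma adjusted p = 0.0741), without the filter on dim probes (0.112), where both channels had to pass the filter (0.0508), and with the mean (0.0537) or the dimmest (0.073) probe of each gene.

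The sensors themselves showed small ratios. Atf6, the sensor that is cut to release a transcription factor, had intensities of 11.23 and 11.29 in CD133-positive cells and 10.91 and 10.80 in CD133-negative cells. The intensities did not overlap, and the ratio was 0.40 ± 0.14 (limma adjusted p = 0.18). Eif2ak3, which encodes the kinase PERK, had ratios of −0.03 and 0.34. Ern1 and Ern2, which encode the alpha and beta forms of IRE1, were dim. Ern1 had ratios of 0.03 and 0.02, and Ern2 was within 0.01 of 0 on both arrays.

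Creb3l2, an ER-tethered relative of ATF6 that is known to drive secretory pathway genes, was at −0.25 on array 1 and 0.75 on array 2. Its other probe differed in the same way, at −0.53 and 0.70. The arrays therefore gave opposite signs through both probes, and the mean of 0.25 ± 0.29 turned to −0.01, relative to all genes, with median centring.

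The factors of the integrated stress response, the branch below PERK, all had ratios above 0 on both arrays (32.6% of all genes). Trib3, a pseudokinase induced by ATF4 and CHOP, had intensities of 11.75 and 11.62 in CD133-positive cells, against 10.46 and 11.14 in CD133-negative cells. The fractions did not overlap, but the arrays differed in size, with ratios of 1.28 and 0.48. Its mean ratio was 0.88 ± 0.24 with a limma adjusted p of 0.127, and its other probe gave 1.06 and 0.22.

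Atf4, the central factor of this branch, had ratios of 0.23 and 0.12, with a limma adjusted p of 0.484. Relative to all genes, its sign turned with median centring (−0.06). Ddit3, which encodes the pro-apoptotic factor CHOP, had 0.46 and 0.04. Atf3, a stress-induced repressor and activator, had 0.14 and 0.37, and relative to all genes it also turned with median centring (−0.06). The 4 genes had a median ratio of 0.25. Relative to the median of all genes it was 0.28 as reported and 0.03 with median centring.

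All 10 tested chaperones and co-chaperones had ratios above 0 on both arrays (32.6% of all genes), with a median of 0.37 and a range from 0.10 to 0.95. At an unadjusted limma p under 0.05, 4 were higher, where 11.9% of all genes were. Hyou1, an ER chaperone that works as an exchange factor for BiP, had intensities of 11.22 and 11.33 in CD133-positive cells and 10.22 and 10.43 in CD133-negative cells. The fractions stood about equally far apart on both arrays, and the ratio was 0.95 ± 0.14 with a limma adjusted p of 0.0678. Only with an intensity trend in the variance and with median centring over tested probes was Hyou1 called (limma adjusted p = 0.0484 and 0.0455).

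Hsp90b1, which encodes the HSP90 chaperone GRP94 and whose promoter held 2 ERSE matches, had intensities of 14.53 and 14.76 in CD133-positive cells, against 14.04 and 14.04 in CD133-negative cells. Its ratio was 0.60 ± 0.15 (limma adjusted p = 0.112). Dnajc3, a co-chaperone that also inhibits PERK, was at 9.55 and 9.83 in CD133-positive cells and 9.12 and 9.09 in CD133-negative cells, a ratio of 0.58 ± 0.16 (limma adjusted p = 0.125). For both genes the CD133-positive values lay above the CD133-negative ones, further apart on array 2.

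Calr, which encodes the lectin chaperone calreticulin, was at 12.74 and 12.63 in CD133-positive cells, against 12.29 and 12.09 in CD133-negative cells. The groups did not overlap, and its ratio was 0.49 ± 0.14 (limma adjusted p = 0.129). Canx, its membrane-bound relative calnexin, had smaller ratios of 0.25 and 0.06, and its value turned to −0.20, relative to all genes, with median centring.

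Hspa5, which encodes BiP, the chaperone most used as a marker of the unfolded protein response, differed little. Its intensities were 14.26 and 14.26 in CD133-positive cells and 14.18 and 14.14 in CD133-negative cells, so they did not overlap but lay close together. The ratio was 0.10 ± 0.14 with a limma adjusted p of 0.712, and it stood at −0.31 relative to all genes with median centring. The spread of 2 arrays cannot show a difference of this size.

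The other chaperones were intermediate. Dnajb11, a BiP co-chaperone, had ratios of 0.16 and 0.58, and Sdf2l1, which acts in the same complex, had 0.49 and 0.25. Dnajb9, a co-chaperone known to bind IRE1, had 0.57 and 0.07, and its intensities overlapped between fractions. Creld2, an ER protein induced by the response, had 0.12 and 0.40 and turned to −0.06, relative to all genes, with median centring. Manf, a secreted ER stress protein outside the naming rule, had 0.26 and 0.17.

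**Figure D3:**
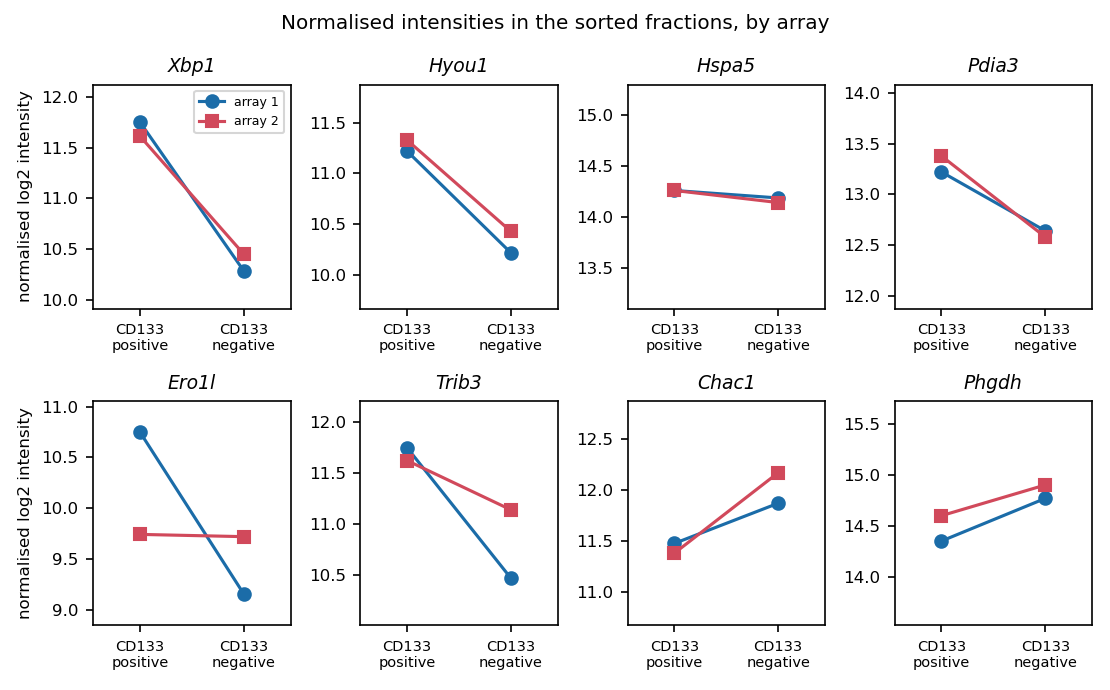
Log2 intensity, after normalisation between channels and arrays, of selected members in CD133-positive and CD133-negative cells, with a line joining the fractions of the same array. Xbp1, Hyou1, Trib3 and Pdia3 were higher in CD133-positive cells on both arrays, Hspa5 was nearly level, and Chac1 and Phgdh were lower.

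All 7 enzymes of disulfide and oxidative folding also had ratios above 0 on both arrays (32.6% of all genes), with a median of 0.43. Agr2 among them passed the filter only through the CD133-positive fraction. Pdia3, a disulfide isomerase that works with calnexin and calreticulin, had intensities of 13.22 and 13.38 in CD133-positive cells, against 12.64 and 12.58 in CD133-negative cells. P4hb, the founding disulfide isomerase of the family, had 14.74 and 14.51 in CD133-positive cells and 14.10 and 14.08 in CD133-negative cells. Neither gene overlapped between the fractions. Their ratios were 0.69 ± 0.15 (limma adjusted p = 0.0956) and 0.53 ± 0.15 (limma adjusted p = 0.126).

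Ero1l, the oxidase that recharges the isomerases, rested on 1 array. Its intensities were 10.75 and 9.74 in CD133-positive cells, against 9.16 and 9.72 in CD133-negative cells. Array 1 gave a ratio of 1.59 and array 2 a ratio of 0.02, and its other probe gave 1.66 and −0.08. The mean ratio of 0.81 ± 0.42 had a limma adjusted p of 0.303. Ero1lb, the beta form of the oxidase, was at 0.49 and 0.25.

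Agr2, a disulfide isomerase family member known to be needed for mucin production, lacked a signal well above background in the CD133-negative fraction. Its ratios of 0.62 and 0.24 rest on that dim signal. By the means of both arrays, 6.38 in CD133-positive and 5.95 in CD133-negative cells, the fold was 1.35. The bound for dim probes equals this measured ratio and so sets no lower limit, and Agr2 did not pass (limma adjusted p = 0.202). The size of its log2 ratio depended on the processing. It was 3.28 from the deposited processed signals (limma adjusted p = 0.0184) and 0.81 with an offset of 16 (limma adjusted p = 0.119). With median centring it was 1.18 over tested probes (limma adjusted p = 0.0337) and 0.52 over all probes (limma adjusted p = 0.0442). Relative to all genes it was 1.27 with either centring. All of these rest on a CD133-negative signal that was not well above background. Pdia4 and Pdia6, further disulfide isomerases, had mean ratios of 0.31 and 0.24, each larger on array 1. With median centring, Pdia6 turned to −0.15 relative to all genes.

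ER-associated degradation and translocation were mixed. Herpud1, a membrane component of the degradation machinery, had intensities of 13.23 and 12.66 in CD133-positive cells and 12.62 and 12.36 in CD133-negative cells. These did not overlap, and its ratio was 0.46 ± 0.16 (limma adjusted p = 0.172). Edem1, a lectin that targets misfolded glycoproteins, had 0.11 and 0.22, and it turned to −0.04, relative to all genes, with median centring. Syvn1, which encodes the ubiquitin ligase HRD1, was at −0.15 on both arrays through its brighter probe, and at 0.05 and 0.01 through its other probe. Sel1l, the partner of HRD1, outside the naming rule, was at 0.02 and 0.01.

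Ssr1, which encodes a subunit of the translocon-associated protein complex, was at 12.03 and 12.13 in CD133-positive cells, against 12.74 and 12.34 in CD133-negative cells. The CD133-positive values were the lower ones, more so on array 1. Its ratio was −0.45 ± 0.19 with a limma adjusted p of 0.217, and its dimmest probe stood level with the median of all genes (0.00). Sec61b, which encodes a subunit of the translocation channel, was at 0.10 and 0.12, and at −0.31, relative to all genes, with median centring.

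The amino acid response genes had ratios of both signs. Of the 5 tested, 3 had ratios above 0 on both arrays (32.6% of all genes) and 2 had ratios below 0 (39.7%). Chac1, a glutathione-degrading enzyme induced through ATF4 and CHOP, had intensities of 11.47 and 11.38 in CD133-positive cells, against 11.87 and 12.17 in CD133-negative cells. All CD133-positive values lay below the CD133-negative ones, and the ratio was −0.59 ± 0.17 with a limma adjusted p of 0.133. Chac1 was the only member lower at an unadjusted limma p under 0.05, as were 2439 of the 15267 genes.

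Phgdh, the first enzyme of serine synthesis, was at 14.35 and 14.60 in CD133-positive cells and 14.77 and 14.90 in CD133-negative cells. On both arrays the CD133-positive cells were the lower fraction, and the ratio was −0.36 ± 0.14 (limma adjusted p = 0.2). Psat1, the next enzyme of that pathway, was at 0.03 and 0.15. Asns, asparagine synthetase, had 0.00 and 0.22, and Shmt2, which turns serine into glycine in mitochondria, had 0.07 and 0.14. Relative to all genes, those 3 genes turned with median centring, to −0.18 for Psat1, −0.29 for Asns and −0.11 for Shmt2. The intensities of all 3 overlapped between the fractions.

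The role groups can be set side by side, though their order differed between the arrays. Relative to the median of all genes, the median ratio was 0.40 for the 10 chaperones, 0.46 for the 7 folding enzymes, 0.23 for the 6 sensors and transcription factors of the response and 0.12 for the 5 amino acid response genes. With median centring the same values were 0.19, 0.37, 0.26 and −0.29. Taking Xbp1, Atf3, Atf4, Atf6, Ddit3 and Creb3l2 as the transcription factors, 5 of 6 were above 0 on both arrays, with a median ratio of 0.26. Chaperones and folding enzymes together were above 0 on both arrays in 17 of 17, with a median of 0.37. Of all genes, 32.6% were above 0 on both arrays. The 17 include Agr2, which passed the filter only through the CD133-positive fraction. With median centring, 3 of the 6 transcription factors and 13 of those 17 genes lay above the median of all genes. No test of the difference between these groups was made, because their members were chosen with earlier results known and are not replicates.

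**Figure D4:**
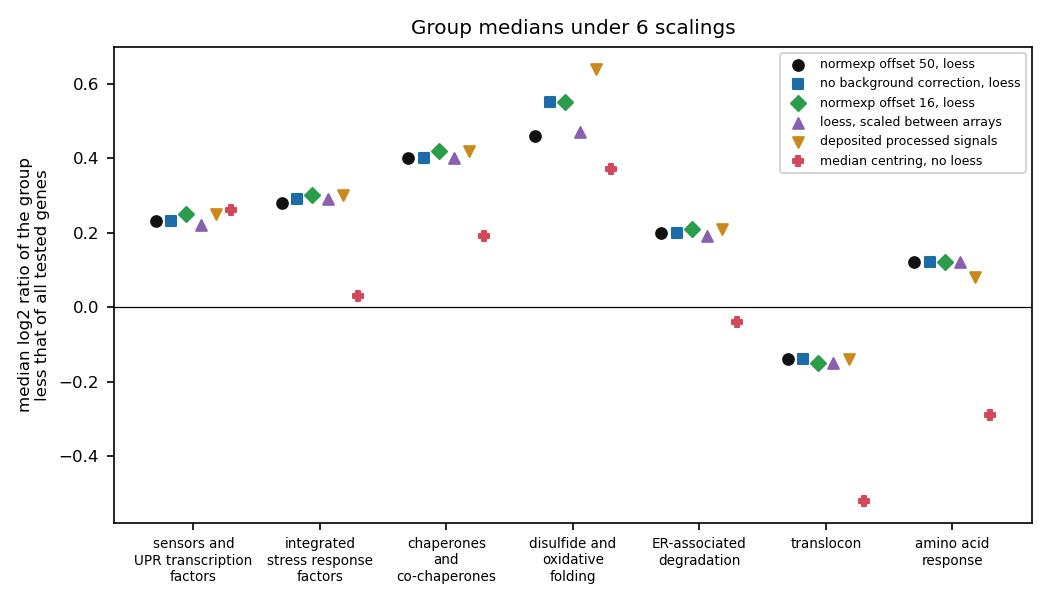
Median log2 ratio of each role group less that of all tested genes, under 6 ways of scaling the arrays. Chaperones and folding enzymes lie above 0 in all 6, the translocon below 0 in all 6, and the amino acid response and ER-associated degradation cross to below 0 with median centring.

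In the channel intensities, both CD133-positive values lay above both CD133-negative values for 23 of the 37 members (27.6% of all genes) and below them for 4 (34.5% of all genes). The 23 include Agr2, which passed the filter only through the CD133-positive fraction. The fractions overlapped for the other 10, among them Ern1, Ern2 and Eif2ak3 of the sensors. The arrays differed by over 0.5 in the ratio of 5 members, of which Ero1l and Creb3l2 differed most. Across the 15 members with more than 1 tested probe, 24 further probes were compared with the one that represents the gene, and 1 of them, of Syvn1, had the opposite sign.

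**Figure D5:**
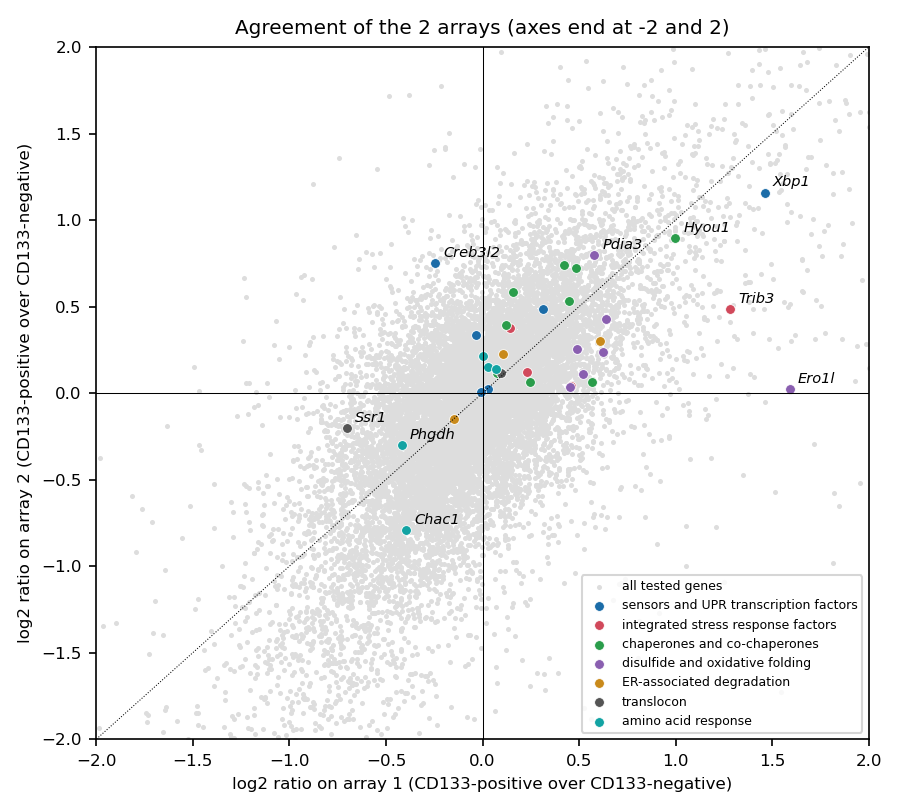
Log2 ratio on array 1 against array 2 for the 37 tested members, coloured by role, over all tested genes in grey. Most members lie in the upper right quadrant near the diagonal, and Ero1l and Creb3l2 lie far from it.

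The 9 members with an ERSE match had a median ratio of 0.26, as had all 37 members. Above 0 on both arrays were 8 of the 9, against 30 of the 37 members and 32.6% of all genes. Among tested genes that are no members, 10 had a match, with a median of −0.01, 5 above and 5 below 0 on both arrays. With median centring, 4 of the 9 members lay above the median of all genes, and their median relative to it was −0.06. Of the 5 members with a CARE match, Trib3, Herpud1, Atf3 and Asns had ratios above 0 and Chac1 had a ratio below 0, with Atf3 and Asns turned by median centring.

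Neighbouring pathway lists, chosen with earlier results of these data known, held 149 further genes, of which 147 were tested. Of these, 70 were above 0 and 40 below 0 on both arrays, 2 were called higher and 0 lower (1.40% and 0.275% of all genes), and the median was 0.10. With median centring that median was −0.13 relative to all genes. Translocon and signal peptide genes had a median of 0.29 (14 of 21 above 0 on both arrays) and the oligosaccharyltransferase, which attaches N-glycans, 0.32 (6 of 10). Other ER chaperones were at 0.20 (14 of 22) and other degradation genes at 0.18 (7 of 14). COPII and COPI transport genes were at 0.04 (11 of 28), and other stress regulators at −0.06 (5 of 20). With median centring, relative to all genes, these 6 lists stood between −0.24 for the transport genes and 0.07 for the oligosaccharyltransferase.

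The other amino acid response targets split evenly, with 13 of 32 above and 14 below 0 on both arrays and a median of 0.01 that turned to −0.17, relative to all genes, with median centring. Stc2, a secreted glycoprotein, and Wars, the tryptophanyl-tRNA synthetase, both known targets of ATF4, rose in CD133-positive cells, with ratios of 3.39 ± 0.14 (limma adjusted p = 0.0118) and 2.12 ± 0.14 (limma adjusted p = 0.0232). Shmt1, the cytosolic relative of Shmt2, and Lman1, a cargo receptor for ER export, were about 2-fold higher on both arrays but did not pass (ratios of 1.04 each, limma adjusted p = 0.0651 each).

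Several checks bear on all these values. Prom1, which encodes CD133 and by which the cells were sorted, was not well above background in the CD133-negative fraction, and was higher in CD133-positive cells by at least 3.58 on the log2 scale (means of 9.36 in CD133-positive and 5.59 in CD133-negative cells, limma adjusted p = 0.00957). Runx3 and Trp53, deleted in the line, gave signals above background in both fractions, at 0.05 and −0.05, and the probes were not placed against the deleted parts. Across genes the arrays had a Pearson r of 0.771, and genes are not independent replicates.

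Markers of secreting stomach cells were mostly higher in CD133-positive cells. All 3 tested of 4 surface mucous markers were above 0 on both arrays (Gkn2 at 5.60, Tff1 at 4.40), as were 32.6% of all genes. Of 5 neck and chief cell markers, 4 were tested and 3 were above 0 on both arrays, led by Pga5 at 3.77. Gkn1 and Pgc, and Cldn7 and Cdh5 below, passed the filter only through the CD133-positive fraction. The direction of such genes was largely set by the filter. Gkn1 was not well above background in the CD133-negative fraction. Its bound by the means of both arrays was 2.01-fold higher, which array 2 alone did not reach. Gkn1 did not pass the test (limma adjusted p = 0.193). Of the 6 epithelial markers, 5 were tested, with Krt8 at −0.78, Krt18 at −0.54, Krt19 at −0.79 and Cdh1 at 0.42. Cldn7 was dim in the CD133-negative fraction, with ratios of 0.26 and 0.49. As for Agr2, its bound of 1.30-fold equals the measured ratio of the means and sets no lower limit. The difference did not pass (limma adjusted p = 0.202). Parietal and endocrine markers were not tested, since none was well above background by the filter. Of 6 blood, 4 endothelial and 6 fibroblast and muscle markers, 4, 1 and 4 were tested, and the defining ones Ptprc, Pecam1 and Pdgfra were below the filter. The endothelial cadherin Cdh5, also dim in the CD133-negative fraction, had ratios of 2.20 and 3.02 (limma adjusted p = 0.0427). By the means of both arrays its bound was 5.81-fold, which array 1 alone did not reach. Col1a1 was at −1.25 (limma adjusted p = 0.0669), while the other fibroblast and muscle markers tested had mean ratios above 0. These were Col1a2 at 0.08, Acta2 at 0.13 and Des at 0.27, and none of the 4 passed. The part of these cell states in the ratios of the stress and secretory genes was not tested.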

How the data were processed

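The deposited scanner files hold spot intensity for Cy3 and Cy5, local background intensity and processed signals, and per the file headers the program Agilent Feature Extraction (9.5.3.1) read the spots and dye-normalised the processed signals. The ratio the authors deposited is log10 of red over green, and the series' value table equalled it in all 45018 spots of both arrays. Deposited flags mark spots well above background or as outliers, per the file headers. No spot was saturated, and 24112 and 23911 spots of arrays 1 and 2 had a Cy3 signal well above background. The number of arrays, 2, limits the precision.

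Mean intensities were corrected by normexp (offset 50) and normalised by loess within each array, with control spots at weight 0. Spots of a probe were averaged. A probe was kept where the same dye was well above background on both arrays and no outlier flag was set. This left 23173 probes, and each of 15267 genes was represented by its brightest one. Of 41174 probes, 22951 were named by accession and 9768 by symbol through RefSeq (GRCm38.p6), and 8455 kept their name in the files. The test was two-sided, by limma (3.58.1, under R 4.3.3), with 1 residual and 2.87 prior degrees of freedom and Benjamini-Hochberg adjustment. Channel intensities followed loess and Aquantile. The bounds for Agr2, Prom1, Gkn1, Cldn7 and Cdh5 set the bright mean against the higher of the dim signal and the lowest signal well above background. The procedure was tested on simulated data. The members, lists and the rule for named genes (all members, the sorted and deleted genes, and in wider lists called genes or up to 3 at least 2-fold higher or lower on both arrays) were chosen with earlier results of these data known. Alternatives varied background correction, normalisation, filter, probe choice and variance model.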

Additional observations from a re-analysis of the deposited data

How the results depend on the processing

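Values here are less the median of all tested genes in the same setting. The 37 members and 7 role groups kept their direction under the alternatives run, apart from those named here. Array 1 alone put Eif2ak3 at −0.01 and Creb3l2 at −0.23, and Ern2 was at 0.00 without the filter. With median centring in place of loess, over all or over tested probes alike, Atf3 and Atf4 stood at −0.06, Creld2 at −0.06, Creb3l2 at −0.01, Hspa5 and Sec61b at −0.31, Canx at −0.20, Pdia6 at −0.15, Edem1 at −0.04, Asns at −0.29, Psat1 at −0.18 and Shmt2 at −0.11, and the medians were 0.03 for integrated stress response factors, 0.19 for chaperones, −0.04 for ER-associated degradation, −0.52 for the translocon and −0.29 for the amino acid response. With the dimmest tested probe, Syvn1 was at 0.05 and Ssr1 at 0.00, chaperones at 0.36 and the translocon at 0.06. Median centring over all probes put the median of all genes at −0.75, and over tested probes at −0.09. The cause was not tested. Called members were 0 as reported (256 of 15267 genes), without the filter (30 of 27667 genes) and with the dimmest probe (156 genes). They were 1 each without background correction (377 genes), with an offset of 16 (576 genes) and with scaling between arrays (509 genes). With the deposited processed signals and with the value table the count was also 1 (486 genes in each). It was 2 with an intensity trend (827 genes). Median centring over tested probes called 7 members (3 with a ratio below 0) and 4076 genes. Over all probes it called 26 members (25 below 0) and 10148 genes. Without moderation, by an ordinary t-test, 0 genes were called, and 2 members, Syvn1 and Hyou1, had an unadjusted t-test p under 0.05. The share of all genes under that p is not given here, so those 2 members are a description only. On array 1 alone, the medians were 0.45 for chaperones, 0.60 for folding enzymes, 0.36 for integrated stress response factors, 0.03 for sensors, 0.13 for degradation, −0.28 for the translocon and 0.02 for the amino acid response. On array 2 alone they were, in the same order, 0.51, 0.28, 0.29, 0.46, 0.27, 0.00 and 0.19. The test was paired by array, because each ratio sets both fractions on 1 array against each other. With 2 arrays of the same dye orientation, dye effects were not measured. By the test as reported, no member was separated from the spread, Xbp1 at 2.48-fold included.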
